A study of Mus musculus with 18 samples.

Results

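The 8 genes described here encode the neutral lipases that work in the cytosol, on lipid droplets and at the endoplasmic reticulum, together with their cofactors: Pnpla2, Abhd5, G0s2, Pnpla3, Lipe, Mgll, Abhd6 and Aadac. They were chosen by name, as the enzymes and regulators of neutral lipolysis, and not by their values, though earlier results of these data were known. They are 8 of the 35441 genes in the deposited liver RNA-seq table. All 8 had over 100 reads summed over the 18 livers and were tested with 14533 genes in all. The livers came from male mice in 6 groups of 3. WT mice were littermates, Lipa-/- mice lacked exon 4 of Lipa, deleted in the whole body by CMV-Cre on a C57/BL6N background, and treated Lipa-/- mice had the same deletion and an intravenous rAAV8 vector that carried the human LIPA cDNA under the hepatocyte-specific hAAT promoter. The groups of each kind of mouse are named by 12 and 34 weeks post-injection, which the labels give as 3 and 8 months, the untreated groups included. According to the methods, a single Lipa-/- mouse was still alive at 34 weeks, and the others were taken at predefined endpoints. The labels give 3 Lipa-/- livers at that time point, so not all of them were taken at 34 weeks. In values of 34-week Lipa-/- livers, time point, age and disease endpoint cannot be told apart. The labels also carry a study code that separated all 34-week livers from the 12-week livers, so time and code cannot be told apart, and at 12 weeks Lipa-/- mouse 5 had a code of its own.

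Lysosomal acid lipase, the product of Lipa, hydrolyses cholesteryl esters and triacylglycerols that reach the lysosome. Neutral lipolysis is the parallel route outside the lysosome. Adipose triglyceride lipase (ATGL, Pnpla2) takes the first fatty acid from a triacylglycerol on the lipid droplet, ABHD5 (CGI-58) activates it and G0S2 inhibits it. Hormone-sensitive lipase (HSL, Lipe) acts on diacylglycerols and cholesteryl esters, and monoacylglycerol lipase (Mgll) and ABHD6 act on monoacylglycerols, among them the endocannabinoid 2-arachidonoylglycerol. PNPLA3 is a droplet protein of hepatocytes related to ATGL, and AADAC is an esterase of the hepatocyte endoplasmic reticulum that has been linked to the use of stored triacylglycerol.

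The active site shows how these proteins differ. Serine hydrolases carry a nucleophilic serine between glycines (glycine, any residue, serine, any residue, glycine), and this codon pattern, GGN NNN then a serine codon (TCN, AGT or AGC) then NNN GGN, was searched in frame on the coding strand of each gene's canonical transcript (GENCODE vM39, GRCm39). It was present in 6 of the 8 coding sequences, and in 18.4% of 21546 annotated coding sequences overall. The segments below run 5′ to 3′ and centre on the match, with the serine codon in capitals. Codons are counted from the start codon of the canonical transcript, which need not be the main form in liver. They are shown because the enzymes of the set are those that hold the pattern.
Pnpla2, codon 47 of 500: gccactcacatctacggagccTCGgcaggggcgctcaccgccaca
Pnpla3, codon 47 of 384: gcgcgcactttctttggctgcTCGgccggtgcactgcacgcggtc
Lipe, codon 736 of 1072: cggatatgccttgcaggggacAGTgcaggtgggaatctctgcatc
Mgll, codon 122 of 303: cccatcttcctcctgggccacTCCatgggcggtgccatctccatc
Abhd6, codon 148 of 336: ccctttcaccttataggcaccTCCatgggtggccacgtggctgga
Aadac, codon 188 of 398: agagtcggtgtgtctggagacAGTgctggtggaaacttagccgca
Mgll held the pattern also at codon 83. Abhd5 had no serine match, and at codon 155 of 351 the same pattern held an asparagine codon, shown in capitals, in the place of the serine.
Abhd5, codon 155 of 351: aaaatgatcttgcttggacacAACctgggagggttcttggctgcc
The short coding sequence of G0s2, 103 codons, held neither form. In GRCm39 the genes lie on chromosome 7 (Pnpla2 at 141034404 to 141040656 and Lipe at 25078880 to 25098135), chromosome 9 (Abhd5 at 122180621 to 122222936), chromosome 1 (G0s2 at 192949563 to 192956177), chromosome 15 (Pnpla3 at 84051943 to 84073723), chromosome 6 (Mgll at 88652108 to 88805342), chromosome 14 (Abhd6 at 14411450 to 14468795) and chromosome 3 (Aadac at 59933138 to 59948549).

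Each liver had 17527848 to 25833134 assigned reads. CPM are the reads of a gene scaled to the size of its library times a scaling factor between libraries (TMM factor). These factors were 0.587 to 0.759 in 12-week treated and 1.37 to 1.69 in 34-week Lipa-/- livers. A count of 3 reads, the limit that a count of 0 allows, was 0.0946 to 0.291 CPM on this scale. Murine Lipa was 202 to 323 CPM in the 6 WT livers and 16.7 to 37.0 CPM in the 12 livers with the deletion, and hLIPA, the vector's gene, was 523 to 2746 CPM in the 6 treated livers and at most 0.908 CPM elsewhere. Hepatocyte markers (7 of 8 listed genes in the table) summed to 58928 to 77459 CPM in WT livers and 22038 to 56769 CPM in Lipa-/- livers, and to 59031 to 106010 CPM in 12-week and 48793 to 75153 CPM in 34-week treated livers. The 12 macrophage markers summed to 186 to 670.4 CPM in WT, 4693 to 9576 CPM in Lipa-/-, 1335 to 3149 CPM in 12-week treated and 503 to 1139 CPM in 34-week treated livers. Against WT at 12 weeks, 10 of 12 macrophage, 6 of 6 neutrophil, 5 of 7 stellate cell, 3 of 5 cholangiocyte, 4 of 6 lymphocyte and 1 of 6 endothelial markers rose in Lipa-/- livers, and 3 of 7 hepatocyte, 2 of 6 endothelial and 1 of 7 stellate cell markers fell. At 34 weeks 9 of 12 macrophage, 4 of 6 neutrophil, 5 of 7 stellate cell, 5 of 5 cholangiocyte, 3 of 6 lymphocyte and 1 of 6 endothelial markers rose, and 6 of 7 hepatocyte, 2 of 7 stellate cell, 2 of 6 endothelial and 1 of 12 macrophage markers fell. Of 6 adipocyte markers 2 had enough reads to be tested. Neither passed at 12 weeks, and at 34 weeks Cidea fell in Lipa-/- and in treated livers against WT. The adipocyte markers summed to 2.12 to 61.6 CPM in 34-week WT livers, of which Cidea was 1.83 to 59.1 CPM, and to at most 7.29 CPM in the other groups, and their part in the 34-week differences of the members was not tested. Lep had 0 reads in all 18 livers and Adipoq was at most 0.606 CPM. The libraries also differed in how expression ran with GC content. The trend of log2 CPM with the GC content of each gene's canonical transcript, relative to the mean of the 18 livers, was -0.73 to -0.35 per 10 percentage points in 12-week treated livers, -0.18 to 0.05 in WT, -0.03 to 0.07 in 34-week treated and 0.20 to 0.36 in Lipa-/- livers. Treated livers at 12 weeks therefore stood apart from the other libraries, and among them mouse 10 had the steepest trend and the fewest reads.

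On a scale per length, TPM, which corrects for transcript length, Aadac had the highest level of the 8 genes in WT livers at 12 weeks, 528 ± 34.0 (SD, n = 3). G0s2 followed at 138 ± 86.6 TPM, Mgll at 36.1 ± 10.5, Abhd5 at 22.8 ± 3.82, Pnpla2 at 18.6 ± 6.27, Abhd6 at 14.8 ± 2.72, Pnpla3 at 4.49 ± 3.35 and Lipe at 3.28 ± 1.15 TPM. The ranges of Abhd5, Pnpla2 and Abhd6 overlapped from each gene to the next, as did those of Pnpla3 and Lipe, and those of Aadac, G0s2 and Mgll did not overlap with each other. In 34-week WT livers the levels of G0s2 (507 ± 222 TPM) and Aadac (482 ± 117 TPM) overlapped. In 34-week Lipa-/- livers the order changed, with Aadac at 84.7 ± 27.2, Pnpla2 at 60.7 ± 19.0, G0s2 at 46.1 ± 9.48, Mgll at 34.3 ± 19.7 and Abhd5 at 24.8 ± 1.95 TPM and the range of each of these genes overlapped that of the next. The 8 genes together summed to 689 to 861 TPM in WT and 335 to 360.4 TPM in Lipa-/- livers at 12 weeks, and to 984 to 1471 TPM in WT and 257 to 266 TPM in Lipa-/- livers at 34 weeks. In treated livers the sum was 667 to 1099.5 TPM at 12 weeks and 694 to 879 TPM at 34 weeks. The sums of Lipa-/- livers lay below those of every WT and treated liver. Aadac alone made up 38.4% to 80.4% of the sum in WT and 25.5% to 58.5% in Lipa-/- livers, so the sum does not stand for each gene.

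**Figure D1:**
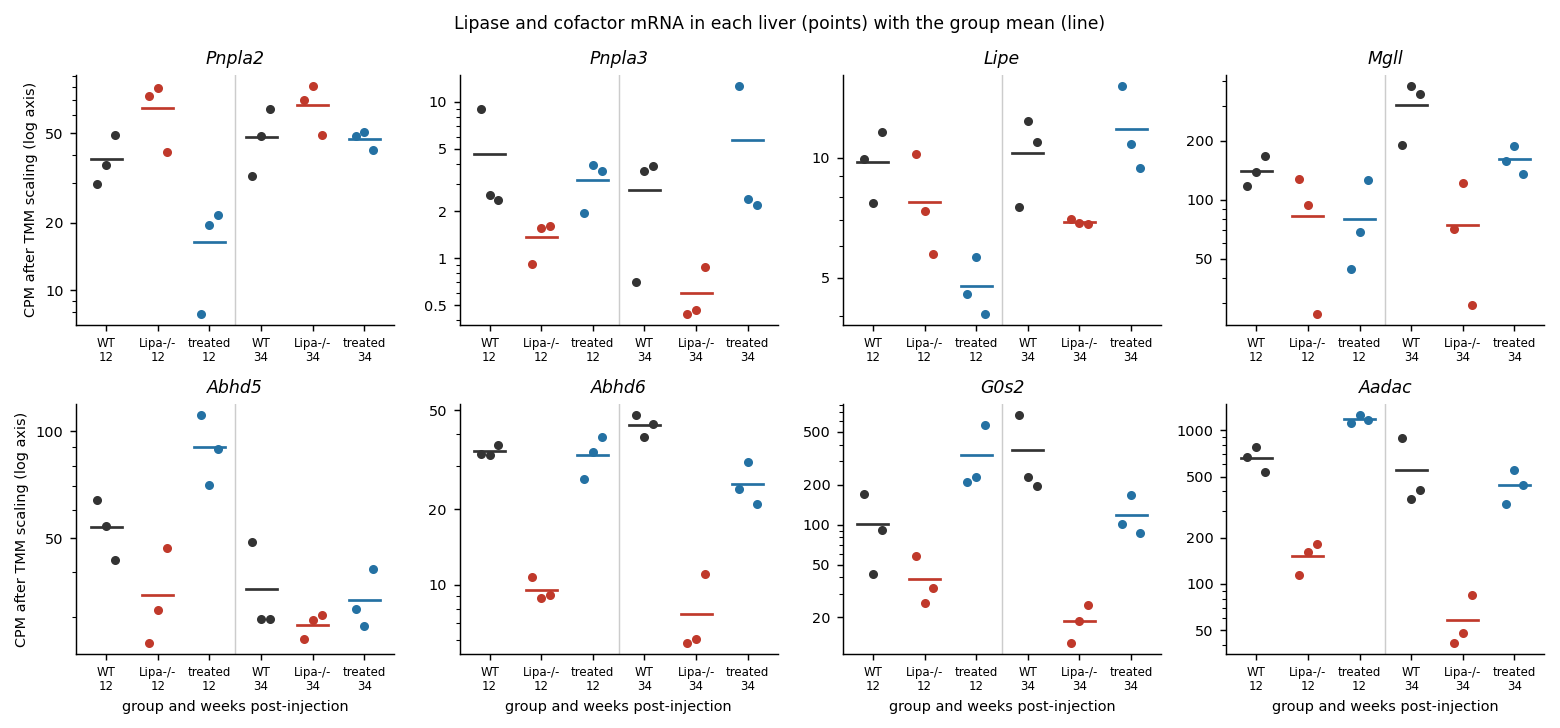
CPM after TMM scaling (log axis) of the 8 genes in each of the 18 livers, by group and weeks post-injection; points are livers and lines are group means of 3. Abhd6 and Aadac in Lipa-/- livers lie below every WT and treated liver at both time points, and Pnpla2 and Abhd5 in 12-week treated livers lie on opposite sides of the other groups.

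The comparison of Lipa-/- with WT livers asks how neutral lipolysis genes stand when the lysosomal lipase is missing. At 12 weeks, Abhd6 and Aadac fell, 3.58-fold and 4.35-fold, and the other 6 genes did not pass the test. At 34 weeks, G0s2 (19.3-fold), Aadac (9.52-fold), Abhd6 (5.71-fold), Pnpla3 (4.64-fold) and Mgll (4.11-fold) fell, and Pnpla2, Abhd5 and Lipe did not pass. No member rose at either time point. A gene passed at an adjusted p below 0.05 in edgeR's quasi-likelihood test, adjusted over all 14533 genes. By that rule 39.2% of all genes passed at 12 weeks and 47.3% at 34 weeks, with 16.3% and 23.5% of all genes lower. At 12 weeks 2 of 8 members, both lower, was below the share that passed and above the share that passed lower. At 34 weeks 5 of 8, all lower, was above both shares. At 12 weeks 3 members and at 34 weeks 5 had groups that did not overlap, against 52.7% and 60.3% of all genes. The median log2 fold change of the members was -1.07 at 12 weeks and -2.13 at 34 weeks, against 0.02 and -0.03 over all tested genes. In whole liver, fewer hepatocytes and less RNA per hepatocyte cannot be told apart, and the part of the lower hepatocyte markers in these changes was not tested.

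Aadac was 674, 775 and 534 CPM in the 3 WT livers at 12 weeks and 114, 160.5 and 181 CPM in the Lipa-/- livers (mice 5, 8 and 9). The highest Lipa-/- liver was far below the lowest WT liver. Its log2 fold change was -2.12 ± 0.36 (SE, adjusted p = 0.00019). At 34 weeks Aadac was 894, 358 and 409 CPM in WT livers and 41.4, 48.0 and 85.2 CPM in Lipa-/- livers (mice 4, 5 and 6), again without overlap, with a log2 fold change of -3.25 ± 0.38 (adjusted p = 3.4e-06). WT mouse 1 was the highest of its group. Aadac has the lowest GC content of the 8 canonical transcripts, 38.6%. Over the 18 livers its log2 CPM ran against the GC trend of the library (r = -0.88, a description over livers that share groups). With the GC and length trend removed the log2 fold changes were -1.60 (adjusted p = 0.00019) and -2.42 (adjusted p = 3.1e-06).

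Abhd6, a monoacylglycerol lipase, was 33.3, 33.1 and 36.3 CPM in WT livers at 12 weeks and 10.7, 8.85 and 9.09 CPM in Lipa-/- livers. At 34 weeks it was 47.8, 38.9 and 44.1 CPM in WT livers and 5.83, 6.07 and 11.0 CPM in Lipa-/- livers. The groups stood apart at both time points. The log2 fold change was -1.84 ± 0.24 (adjusted p = 1.6e-05) at 12 weeks and -2.51 ± 0.25 (adjusted p = 6.6e-07) at 34 weeks. Mgll, which shares its substrates, was less even. It was 117, 138 and 166 CPM in WT livers and 127, 94.1 and 26.3 CPM in Lipa-/- livers at 12 weeks, where the groups overlapped and the log2 fold change of -0.77 (95% interval -1.87 to 0.34) did not pass. At 34 weeks it was 190.2, 379 and 343 CPM in WT livers and 70.6, 122 and 29.1 CPM in Lipa-/- livers, without overlap, and fell by 2.04 on the log2 scale (SE 0.54, adjusted p = 0.0051). Lipa-/- mouse 9 at 12 weeks and mouse 6 at 34 weeks had the lowest Mgll of their groups.

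G0s2, the ATGL inhibitor, had the largest fold of the members at 34 weeks. In WT livers it was 171, 42.1 and 90.8 CPM at 12 weeks and 667, 227 and 195 CPM at 34 weeks. In Lipa-/- livers it was 58.1, 25.5 and 33.5 CPM at 12 weeks and 12.8, 18.8 and 24.7 CPM at 34 weeks. The groups overlapped at 12 weeks and were well separated at 34 weeks, where every Lipa-/- liver was below every WT liver. The log2 fold change was -1.37 ± 0.56 (adjusted p = 0.060) at 12 weeks and -4.27 ± 0.62 (adjusted p = 3.4e-05) at 34 weeks. The 12-week value passed without Lipa-/- mouse 5, the mouse with its own code (-1.77, adjusted p = 0.042), without WT mouse 2 (-1.74, adjusted p = 0.024), in DESeq2 (adjusted p = 0.028) and without the filter on low counts (adjusted p = 0.043), and was -0.77 (adjusted p = 0.33) without WT mouse 1. Without WT mouse 1, which had the highest G0s2 at 34 weeks, the 34-week value was -3.49. The difference between the time points, -2.90 on the log2 scale (SE 0.79), had an unadjusted p of 0.0019 and an adjusted p of 0.19, and no member passed that test, in which 0.0619% of all genes did.

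Pnpla2, which encodes ATGL itself, went the other way on average without passing. It was 29.6, 36.2 and 49.1 CPM in WT livers at 12 weeks and 73.4, 79.2 and 41.2 CPM in Lipa-/- livers, where only mouse 9 fell within the WT range. At 34 weeks it was 32.1, 48.7 and 63.8 CPM in WT livers and 70.5, 81.1 and 48.9 CPM in Lipa-/- livers, where mouse 6 fell within the WT range. The log2 fold change was 0.75 (95% interval 0.02 to 1.49, adjusted p = 0.098) and 0.47 (95% interval -0.26 to 1.20, adjusted p = 0.28). By total counts (1.21 and 1.08) and in TPM (1.18 and 1.13), where the median of all genes was 0.37 to 0.60 on the log2 scale, Pnpla2 passed at both time points, and by upper quartile scaling (0.82 and 0.65) and in DESeq2 (0.76 and 0.48) it did not. It also passed at 12 weeks without Lipa-/- mouse 9 (1.00, adjusted p = 0.043). Its GC content, 58.7%, is high, and its log2 CPM ran with the GC trend of the library (r = 0.92 over 18 livers). With that trend removed the log2 fold change was 0.50 at 12 weeks and 0.31 at 34 weeks, and neither passed.

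Abhd5, the ATGL coactivator, was 64.2, 54.0 and 43.5 CPM in WT livers and 25.3, 31.4 and 47.0 CPM in Lipa-/- livers at 12 weeks, and 48.9, 29.5 and 29.7 CPM and 25.95, 29.3 and 30.3 CPM at 34 weeks. The groups overlapped at both time points. The log2 fold changes, -0.64 (95% interval -1.20 to -0.08, adjusted p = 0.065) and -0.34 (95% interval -0.89 to 0.22), did not pass, and the 34-week value turned positive by total counts (0.33) and in TPM (0.48). Abhd5 passed at 12 weeks without Lipa-/- mouse 9 (-0.92, adjusted p = 0.018) and with the GC trend removed (-0.58, adjusted p = 0.045). Lipe, HSL, was 9.91, 7.70 and 11.6 CPM in WT livers and 10.2, 7.34 and 5.74 CPM in Lipa-/- livers at 12 weeks. At 34 weeks it was 7.55, 12.4 and 11.0 CPM in WT livers and 7.03, 6.88 and 6.84 CPM in Lipa-/- livers, which lay close together just below the lowest WT liver. Neither value passed, with log2 fold changes of -0.33 (95% interval -0.88 to 0.23) and -0.58 (95% interval -1.13 to -0.03, adjusted p = 0.079), and both turned slightly positive by total counts (0.13 and 0.025). The 34-week value passed without WT mouse 1 (-0.76, adjusted p = 0.032), and both passed with the GC trend removed (-0.58, adjusted p = 0.029, and -0.89, adjusted p = 0.0015).

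Pnpla3 was measured with the fewest reads, 12 to 311 per liver, and the mean transcript length that Salmon assigned to it varied from 478 to 1096 bases between livers, so its isoforms were assigned unevenly. It was 9.06, 2.54 and 2.36 CPM in WT livers and 0.923, 1.55 and 1.62 CPM in Lipa-/- livers at 12 weeks, and 0.708, 3.63 and 3.89 CPM and 0.441, 0.464 and 0.882 CPM at 34 weeks. WT mouse 1 was the highest WT liver at 12 weeks, and at 34 weeks the WT mouse numbered 1, a different animal, lay among the Lipa-/- livers. The log2 fold change was -1.77 ± 0.72 (adjusted p = 0.062) at 12 weeks and -2.21 ± 0.76 (adjusted p = 0.024) at 34 weeks. The later call was lost without WT mouse 2 or 3 or without Lipa-/- mouse 4 or 5 (adjusted p = 0.066 to 0.093), by total counts (-1.68, adjusted p = 0.088) and in TPM (-1.13, adjusted p = 0.21). The earlier value passed in 5 of 15 alternative settings and fits with a mouse left out. Among them were the fits without WT mouse 2 or 3 (adjusted p = 0.049 and 0.047) and with the GC trend removed (-1.96, adjusted p = 0.046). Without WT mouse 1 the earlier value was -0.84 (adjusted p = 0.41).

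**Figure D2:**
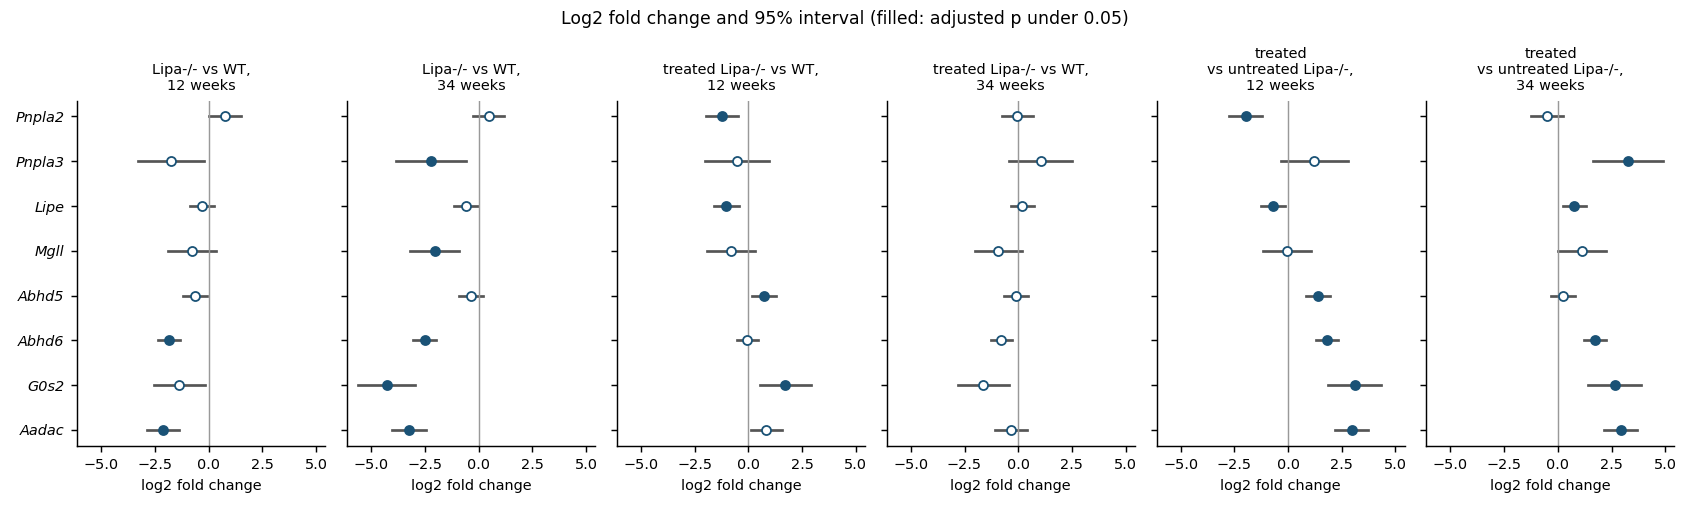
Log2 fold change of the 8 genes in the 6 comparisons within a time point, with 95% intervals from edgeR; filled points passed at an adjusted p under 0.05. In Lipa-/- against WT livers the filled points are all below 0, with 2 at 12 weeks and 5 at 34 weeks, and treated against WT livers at 34 weeks show no filled point.

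The mRNA of inhibitor and lipase was compared as the ratio of G0s2 to Pnpla2 in TPM within each liver, which does not depend on the scaling between libraries. Protein and activity of G0S2 and ATGL were not measured, so the ratio describes mRNA only. The ratio was 15.6, 3.28 and 5.30 in WT livers and 2.18, 0.931 and 2.27 in Lipa-/- livers at 12 weeks. At 34 weeks it was 56.4, 12.8 and 8.25 in WT livers and 0.501, 0.658 and 1.43 in Lipa-/- livers. In treated livers it was 71.5, 32.6 and 70.3 at 12 weeks and 5.75, 8.96 and 5.68 at 34 weeks. Lipa-/- livers had the lowest ratios at both time points, and 12-week treated livers lay above all WT livers of that time point. For each of these separations an exact permutation test over the livers (two-sided) gave p = 0.1, the smallest that 3 against 3 livers allow. The mean log2 ratio differed by -1.96 and -4.54 between Lipa-/- and WT livers at 12 and 34 weeks, by 3.08 between treated and WT livers at 12 weeks and by -1.45 at 34 weeks (exact p = 0.2), where the groups overlapped. G0s2 (51.7% GC) and Pnpla2 differ in GC content, and the part of the GC trend in this ratio was not tested.

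**Figure D3:**
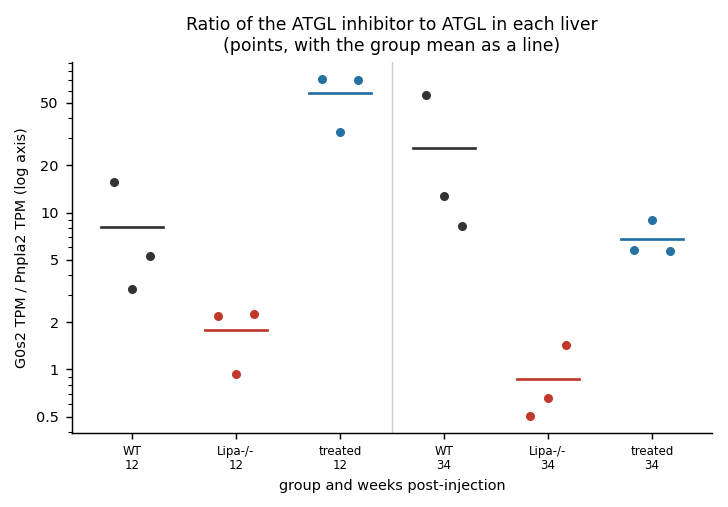
Ratio of G0s2 TPM to Pnpla2 TPM (log axis) in each liver, by group and weeks post-injection; points are livers and lines are group means. Lipa-/- livers lie at 0.501 to 2.27 and 12-week treated livers at 32.6 to 71.5.

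Treated Lipa-/- livers were compared with untreated Lipa-/- livers, which shared their samples with the comparison above. At 12 weeks 6 of 8 members passed, against 54.3% of all genes, and at 34 weeks 5 of 8, against 41.1%. Groups did not overlap for 7 and 6 members, against 59.3% and 55.9% of all genes. Aadac, G0s2 and Abhd6 rose at both time points. Hepatocyte markers rose in the same comparisons (3 of 7 with 1 lower at 12 weeks, and 5 of 7 at 34 weeks). At 12 weeks 7 of 12 macrophage markers fell and 1 rose. In addition 4 of 6 neutrophil and 3 of 5 cholangiocyte markers fell, and 3 of 7 stellate cell markers fell and 1 rose. At 34 weeks 9 of 12 macrophage and 5 of 5 cholangiocyte markers fell, and 5 of 7 stellate cell markers fell and 2 rose. The part of these markers in the changes of any member was not tested. Aadac was 1112, 1254 and 1167 CPM in treated livers at 12 weeks (mice 10, 11 and 12), 7.76-fold above untreated livers (log2 fold change 2.96 ± 0.37, adjusted p = 1.5e-05), and 332, 547 and 442 CPM at 34 weeks (mice 9, 11 and 12), 7.57-fold above (2.92 ± 0.37, adjusted p = 1.2e-05). With the GC and length trend removed these were 1.83 and 2.32 on the log2 scale and both passed. G0s2 was 208, 230.0 and 563 CPM in treated livers at 12 weeks and 102, 166 and 86.6 CPM at 34 weeks, all above every untreated liver, with log2 fold changes of 3.09 ± 0.59 (adjusted p = 0.00047) and 2.65 ± 0.58 (adjusted p = 0.0015). Without treated mouse 12, the highest, the 12-week value was 2.46. Abhd6 was 26.4, 34.0 and 39.1 CPM and 24.2, 30.9 and 21.0 CPM, with log2 fold changes of 1.80 ± 0.24 (adjusted p = 2.5e-05) and 1.73 ± 0.24 (adjusted p = 2.9e-05). In TPM the 12-week value of Abhd6 was 0.60 and did not pass (adjusted p = 0.054).

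Other members moved at a single time point or in opposite directions. Pnpla2 was 7.87, 19.6 and 21.7 CPM in treated livers at 12 weeks, below all other 15 livers, and fell 3.93-fold against untreated livers (log2 fold change -1.97 ± 0.36, adjusted p = 0.00034), while Abhd5 at 111, 70.5 and 89.3 CPM lay above all other livers and rose 2.61-fold (1.38 ± 0.27, adjusted p = 0.00052). At 34 weeks Pnpla2 was 48.5, 50.7 and 42.1 CPM and Abhd5 was 31.5, 28.2 and 40.9 CPM, and neither passed (-0.51, 95% interval -1.24 to 0.23, and 0.23, 95% interval -0.32 to 0.79), while by total counts Pnpla2 passed (-1.06, adjusted p = 0.041) and Abhd5 turned negative (-0.30). The rise of Abhd5 at 12 weeks did not pass by total counts (0.48, adjusted p = 0.085) or in TPM (0.18), where the median of all genes fell by 1.05 and 0.83 against -0.19 with TMM factors. In TPM, Abhd5 was 25.8, 24.4 and 23.3 in these treated livers and 27.1, 19.9 and 21.5 in WT livers. Pnpla3 rose 9.61-fold at 34 weeks (12.6, 2.40 and 2.18 CPM, log2 fold change 3.26 ± 0.77, adjusted p = 0.0027), where mouse 9 was far above its group and without which the value was 1.94. In TPM the value was 1.79 and did not pass (adjusted p = 0.057). Its 12-week value, 1.23 (95% interval -0.31 to 2.77), did not pass. Mgll did not pass at 12 weeks (-0.05, 95% interval -1.16 to 1.05) or at 34 weeks (1.12, adjusted p = 0.10), and its 34-week value passed without Lipa-/- mouse 5 (1.68, adjusted p = 0.035) and with the GC trend removed (1.34, adjusted p = 0.034).

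Lipe changed sign between the time points. It was 4.57, 5.65 and 4.06 CPM in treated livers at 12 weeks, the lowest of all 18 livers, and 15.2, 10.8 and 9.42 CPM at 34 weeks, above all untreated livers of that time point. The log2 fold change against untreated livers was -0.70 ± 0.27 (adjusted p = 0.037) at 12 weeks and 0.77 ± 0.26 (adjusted p = 0.026) at 34 weeks. Both calls depended on single livers. The earlier was lost without Lipa-/- mouse 5 (-0.45, adjusted p = 0.19) or 8 or treated mouse 10 or 12, and it did not pass without the filter (adjusted p = 0.051) or in a fit of the compared groups alone (adjusted p = 0.11), and with the GC and length trend removed the value was -0.00063. The later was lost without any of the 3 untreated livers (adjusted p = 0.066 to 0.074), without treated mouse 9 (0.55, adjusted p = 0.14) and by total counts (0.23, adjusted p = 0.59), upper quartile scaling (0.64, adjusted p = 0.067) and in TPM (0.15, adjusted p = 0.75), and passed with the GC trend removed (1.00, adjusted p = 0.00069).

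Against WT livers, treated livers differed at 12 weeks in 4 members and at 34 weeks in none. At 12 weeks Pnpla2 fell 2.33-fold (log2 fold change -1.22 ± 0.36, adjusted p = 0.016) and Lipe 2.04-fold (-1.03 ± 0.27, adjusted p = 0.011), and Abhd5 rose 1.67-fold (0.74 ± 0.26, adjusted p = 0.038) and G0s2 3.30-fold (1.72 ± 0.56, adjusted p = 0.026). Of all genes 36.8% passed this test, so 4 of 8 is near the background share, and groups did not overlap for 5 members, against 52.5% of all genes. All 4 calls were lost without WT mouse 3, with adjusted p of 0.057 to 0.15. Pnpla2 was also lost without treated mouse 10 (-0.96, adjusted p = 0.056), and Abhd5 without WT mouse 2 or treated mouse 10 or 12, and G0s2 without WT mouse 2 or treated mouse 12 (1.04, adjusted p = 0.16). With the GC trend removed Pnpla2 (-1.01, adjusted p = 0.026), Lipe (-0.58, adjusted p = 0.045) and Abhd5 (0.61, adjusted p = 0.046) still passed and G0s2 did not (1.29, adjusted p = 0.077). Abhd5 did not pass by total counts (0.32, adjusted p = 0.29), in TPM (0.11, adjusted p = 0.76), without the filter (adjusted p = 0.059) or in a fit of the compared groups alone (adjusted p = 0.054), and G0s2 did not by total counts (adjusted p = 0.058) or in TPM (1.12, adjusted p = 0.085). Aadac was above all WT livers at 12 weeks without passing (0.83, 95% interval 0.10 to 1.57, adjusted p = 0.068), it passed in DESeq2 (0.82, adjusted p = 0.048), and it was 0.24 with the GC trend removed. Abhd6 (-0.04, 95% interval -0.54 to 0.45), Mgll (-0.82, 95% interval -1.93 to 0.29) and Pnpla3 (-0.54, 95% interval -2.02 to 0.95) did not pass. For Mgll, 1 of 15 alternative settings and fits with a mouse left out passed, and the values ran from -1.57 to -0.45. In this comparison 8 of 12 macrophage markers were higher and none lower, and 1 of 7 hepatocyte markers was higher and 1 lower. Their part in the member differences was not tested.

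At 34 weeks 0 of 8 members passed between treated and WT livers, as did 0.22% of all genes. By edgeR 2 members had an unadjusted p below 0.05, and DESeq2 also passed 0 members. These were Abhd6 (-0.78, 95% interval -1.28 to -0.29, adjusted p = 0.42) and G0s2 (-1.62, 95% interval -2.80 to -0.44, adjusted p = 0.58). With Mgll (-0.92, 95% interval -2.03 to 0.18) they were the 3 members whose treated livers all lay below the WT livers, where 8.89% of all genes had groups without overlap. Without WT mouse 1 the value of G0s2 was -0.84. The intervals of Aadac (-1.06 to 0.40), Pnpla2 (-0.77 to 0.70), Lipe (-0.36 to 0.74), Abhd5 (-0.66 to 0.46) and Pnpla3 (-0.41 to 2.52) included 0.

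Within treated mice, 5 of 8 members differed between 34 and 12 weeks, where 45.2% of all genes did. Pnpla2 (log2 fold change 1.52 ± 0.36, adjusted p = 0.0035) and Lipe (1.30 ± 0.27, adjusted p = 0.0020) were higher at 34 weeks, and Abhd5 (-1.43 ± 0.27, adjusted p = 0.0016), Aadac (-1.42 ± 0.35, adjusted p = 0.0046) and G0s2 (-1.50 ± 0.56, adjusted p = 0.038) were lower. G0s2 was lost without treated mouse 12 of 12 weeks (-0.86, adjusted p = 0.23) or treated mouse 9 or 12 of 34 weeks, and G0s2 (adjusted p = 0.17) and Aadac (adjusted p = 0.097) were lost with the GC trend removed. In TPM, Abhd5 (-0.46, adjusted p = 0.11), Aadac (-0.43, adjusted p = 0.18) and G0s2 (-0.40, adjusted p = 0.51) did not pass, and G0s2 did not by total counts (-0.86, adjusted p = 0.17), by which Abhd5 was -0.75 and Aadac -0.80. Within WT mice 0 of 8 members passed, as did 0.33% of all genes, and 3 had an unadjusted p below 0.05, namely G0s2 (1.84, adjusted p = 0.25), Abhd5 (-0.58, adjusted p = 0.60) and Mgll (1.11, adjusted p = 0.64). DESeq2 passed 1 of them, G0s2 (adjusted p = 0.050). Within Lipa-/- mice 0 of 8 members passed, as did 0.523% of all genes, and 1 had an unadjusted p below 0.05, Aadac (-1.38, 95% interval -2.13 to -0.64, adjusted p = 0.068). It passed without Lipa-/- mouse 6 of 34 weeks (-1.76, adjusted p = 0.026) and in DESeq2 (adjusted p = 0.0072).

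The GC trend of the library moved with several members. Lipa-/- and 12-week treated livers did not overlap WT livers in this trend, so trend and group cannot be told apart. Removal of the trend also takes out group differences that run with GC content, so it does not test the part of the trend. Over the 18 livers the correlation of log2 CPM with the trend was 0.92 for Pnpla2, 0.39 for Lipe, -0.03 for Mgll, -0.42 for Pnpla3, -0.69 for Abhd6, -0.73 for G0s2, -0.88 for Aadac and -0.89 for Abhd5. The groups themselves differ in the trend, so these values describe 18 livers of 6 groups. The GC content of the canonical transcripts was 58.7% for Pnpla2 and Pnpla3, 55.2% for Lipe, 55.1% for Mgll, 51.7% for G0s2, 49.3% for Abhd6, 46.2% for Abhd5 and 38.6% for Aadac, with a median of 50.0% over the tested genes. The forms that Salmon quantified can differ. Canonical Aadac, G0s2 and Lipe have 2298, 1697 and 3919 bases, against effective lengths of 1036 to 1093, 608 to 654 and 2292 to 2752 in the livers. This limit also holds for values with the GC trend removed.

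**Figure D4:**
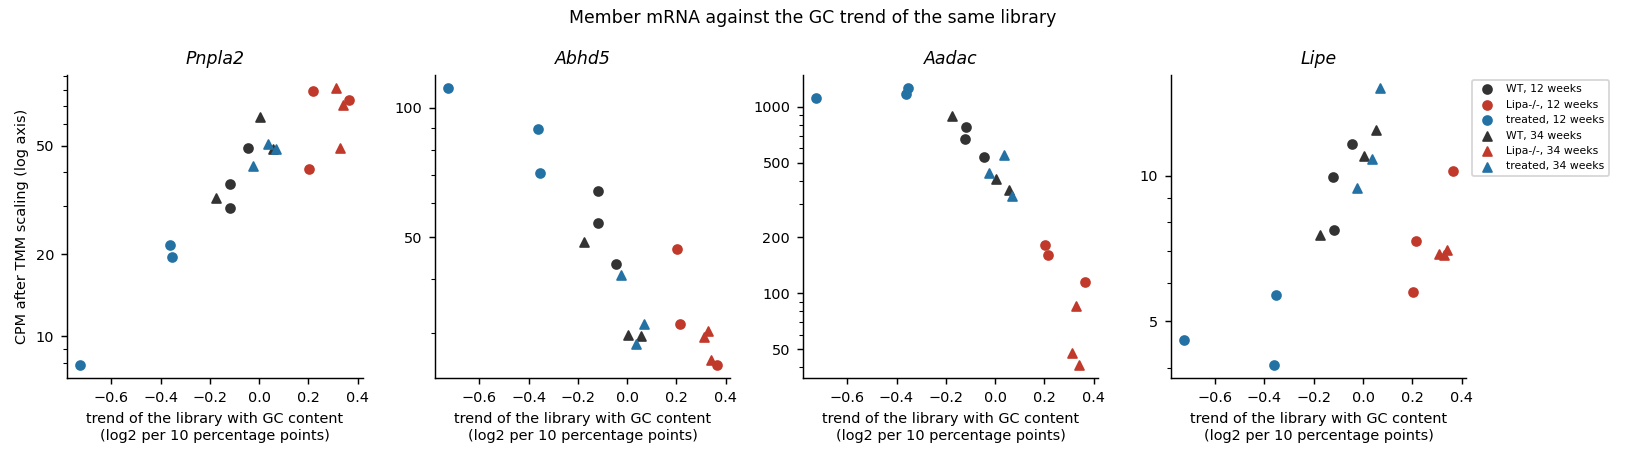
CPM after TMM scaling (log axis) of Pnpla2, Abhd5, Aadac and Lipe in each liver against the trend of the library with GC content (log2 per 10 percentage points); circles are 12-week and triangles 34-week livers, in black for WT, red for Lipa-/- and blue for treated Lipa-/-. Pnpla2 runs with the trend and Abhd5 and Aadac against it, and 12-week treated livers lie at the left end.

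Across the 18 livers some members ran together. The correlation of log2 CPM was 0.90 between Abhd6 and Aadac, 0.88 between Abhd6 and G0s2 and 0.84 between G0s2 and Aadac, and -0.93 between Pnpla2 and Abhd5. Of the 12598 tested genes that averaged 1 CPM or more, the 3 most like Aadac were Qdpr (0.995), Hagh (0.995) and Ddt (0.993), those most like Abhd6 were Cpt2 (0.98), Hsdl2 and Ces1e, and those most like G0s2 were Lrfn3 (0.93), Nat1 and Slc17a1. Among the genes most like Pnpla2 were Rab11b (0.97) and Agap3, and those most like Abhd5 were Orc4 (0.97), Zbtb6 and Hnrnpc. For Lipe they were AI661453 (0.96), Ampd2 and Foxo4, for Mgll Ptdss1 (0.91), Cyp2c38 and Amigo2, and for Pnpla3 Nr2c1 (0.85), Epm2aip1 and Acly. These correlations are over livers that share groups and libraries.

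The other genes around neutral lipolysis were described by list for Lipa-/- against WT livers, where 39.2% of all genes passed at 12 weeks (16.3% lower) and 47.3% at 34 weeks (23.5% lower), with medians of 0.02 and -0.03. Of 16 tested genes of the droplet coat and its regulators, 1 rose and 6 fell at 12 weeks, and 1 rose and 11 fell at 34 weeks (median log2 fold change -0.56 and -1.47), so the share that passed was near that of all genes at 12 weeks. Plin2, the main droplet coat protein of hepatocytes, was 472 to 582 CPM in WT and 213 to 310.3 CPM in Lipa-/- livers at 12 weeks and fell at both time points (log2 fold change -0.995, adjusted p = 0.0068, and -1.78, adjusted p = 5.0e-05). Plin5, which brings ATGL to droplets, fell as well (-1.45 and -2.39), and Fitm1, a droplet-forming protein, fell the most (-3.73 and -6.62). Plin3 rose at 12 weeks (1.02, adjusted p = 0.0010) and Hilpda, an ATGL inhibitor, at 34 weeks (1.59, adjusted p = 0.0058). Cidec and Cidea, which promote droplet fusion, fell at 34 weeks (-4.57 and -5.20), but at 34 weeks WT livers ranged from 3.30 to 39.0 CPM for Cidec and from 1.83 to 59.1 CPM for Cidea.

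Of 15 other ester hydrolases, 2 rose and 9 fell at 12 weeks and 3 rose and 10 fell at 34 weeks (median -1.32 and -1.85). Nceh1, the neutral cholesteryl ester hydrolase best known from macrophages, rose at both time points (1.31, adjusted p = 0.00016, and 0.92, adjusted p = 0.0020), as did Abhd12, a lysophosphatidylserine lipase (1.00 and 1.05). The hepatocyte carboxylesterases Ces1f (404 to 449.6 CPM in WT and 11.5 to 25.9 CPM in Lipa-/- livers at 12 weeks, -4.52, and -7.40 at 34 weeks) and Ces1e (-3.50 and -4.84) fell the most. The macrophage markers that rose beside Nceh1 and the hepatocyte markers that fell beside the carboxylesterases are given above, and their part was not tested. Of 18 genes of triacylglycerol and cholesteryl ester synthesis, 5 rose and 5 fell at 12 weeks and 3 rose and 9 fell at 34 weeks (median -0.36 and -0.55). Soat1, which esterifies cholesterol, rose the most (1.31 to 2.63 CPM in WT and 59.2 to 63.0 CPM in Lipa-/- livers at 12 weeks, log2 fold change 5.09, and 4.51 at 34 weeks), with Agpat4 (3.30 and 4.08). Mogat1 (-4.24 and -6.50), which makes diacylglycerol, fell at both time points, Gpam (-1.52) at 12 weeks and Gpat2 (-2.50) at 34 weeks. Of the acyltransferases that make triacylglycerol, Dgat2 fell at 34 weeks (-1.34, adjusted p = 0.0010) and not at 12 weeks (-0.68, adjusted p = 0.065), and Dgat1 had -0.17 and -0.43, of which the latter passed (adjusted p = 0.029).

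Of 8 transcription factors that act on these genes, 1 rose and 2 fell at 12 weeks and none rose and 4 fell at 34 weeks (median -0.59 and -1.04), shares near those of all genes (39.2% and 47.3%). Ppara, the receptor for fatty acids released by lipolysis, fell (-1.42, adjusted p = 0.0037, and -1.98, adjusted p = 0.00020), as did Mlxipl, the carbohydrate response factor (-1.83 and -2.35). Pparg rose at 12 weeks (1.44, adjusted p = 0.010), and Srebf1 fell at 34 weeks (-1.42, adjusted p = 0.0053) with -0.70 (adjusted p = 0.15) at 12 weeks. Of 14 PPARA targets, 9 fell at 12 weeks and 11 at 34 weeks and none rose (median -1.32 and -2.22), led by the fatty acid hydroxylases Cyp4a14 (-6.36 and -11.58) and Cyp4a10 (-3.35 and -7.23). Cyp4a14 ranged from 3.38 to 62.6 CPM in 12-week and from 143 to 522 CPM in 34-week WT livers, and at 34 weeks it was 0.0368 to 0.189 CPM in Lipa-/- livers, near or under the limit of 3 reads, so its fold is not a measured size. Of 9 lipogenesis genes, 8 fell at 12 weeks and 9 at 34 weeks (median -1.87 and -2.68), led by Me1 (-3.71 and -4.64) and Thrsp (-3.71 and -4.41).

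**Figure D5:**
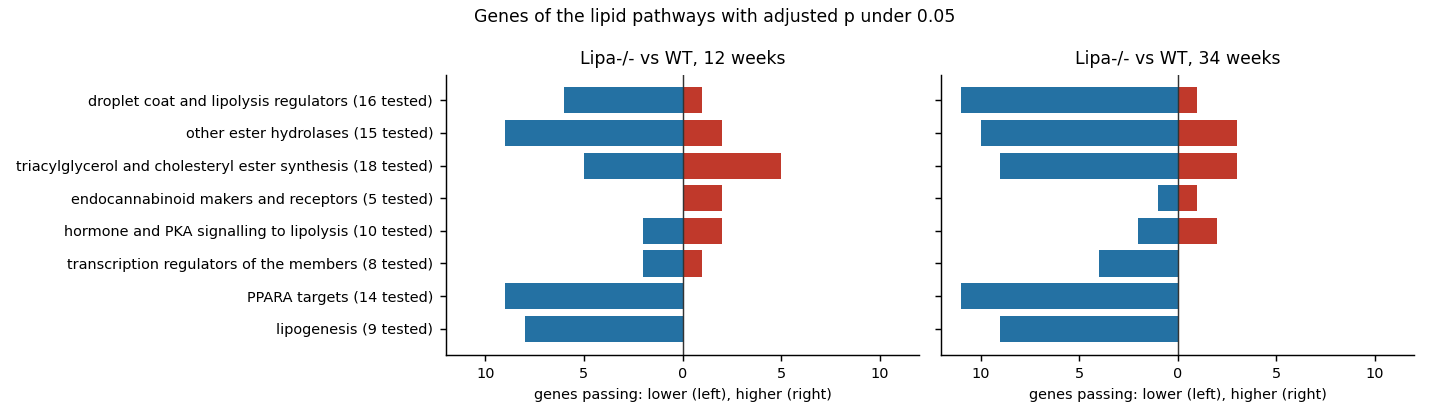
Number of genes in each pathway list with an adjusted p under 0.05 in Lipa-/- against WT livers at 12 weeks (left) and 34 weeks (right), lower to the left of 0 in blue and higher to the right in red. PPARA targets and lipogenesis genes appear only on the lower side (9 and 8 at 12 weeks, 11 and 9 at 34 weeks).

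In treated livers these lists stood as follows, where 36.8% of all genes passed against WT at 12 weeks and 0.22% at 34 weeks. Against WT at 34 weeks, 2 of 16 droplet genes passed, both lower, as did 1 of 18 synthesis genes and 1 of 14 PPARA targets, and none of the other ester hydrolases, transcription factors or lipogenesis genes. At 12 weeks 6 of 9 lipogenesis genes were still lower than in WT livers, among them Fasn (-2.49, adjusted p = 0.0063) and Acacb (-1.97, adjusted p = 0.0078). Of the transcription factors 3 of 8 were lower, among them Srebf1 (-1.37, adjusted p = 0.013), and 1 was higher. Of the droplet genes 2 were higher and 4 lower, of the other ester hydrolases 1 was higher and 1 lower, of the synthesis genes 1 was higher and 4 lower, and 1 PPARA target was lower. Apart from the lipogenesis genes, these shares, that of the factors included, were near or below that of all genes. Soat1 was still higher than WT at 12 weeks (1.93, adjusted p = 0.0020) and had 1.07 (adjusted p = 0.35) at 34 weeks. Fasn and Acacb were named after their values were seen.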

How the data were processed

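RNA-seq of 18 mouse livers was analysed, 3 mice in each of 6 groups, with groups taken from the labels, which give separate mice. According to the methods, the authors quantified paired-end reads with Salmon on the mouse cDNA set and summed transcripts to genes with tximport. They deposited estimated counts per gene, TPM values per gene and effective lengths. Their deposited table of comparisons, made with DESeq2 1.40.1 in R 4.3.0, holds log2 fold changes and p-values and was not used. Here the estimated counts were rounded to whole numbers, genes with over 100 reads summed over the 18 livers were kept, and 6 group means were fitted with edgeR 4.0.16 (quasi-likelihood test, TMM factors, R 4.3.3), with Benjamini-Hochberg adjustment over 14533 genes. Intervals are 95% intervals from that fit. The 9 comparisons of groups and the change of the Lipa-/- and treated effects between time points were tested.

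Alternatives were DESeq2 1.42.0 and edgeR with length offsets, upper quartile and total count scaling, other filters, a fit of the compared groups alone, limma 3.58.1 on log2(TPM + 0.5), a replicate block by mouse number, a stricter adjusted p of 0.01, each mouse left out, and, added after seeing the data, removal of each library's trend with GC content and length (98.4% of tested genes have both). The mouse numbers did not pair livers between time points, since livers were taken at sacrifice and the study codes differed. The deviations of mice of the same number had correlations of 0.08, -0.24 and 0.46 in WT and -0.08 and -0.25 in treated mice. These few values do not settle the question by themselves. The members, the gene lists and the tests were chosen with earlier results of these data known. From each list, the 2 genes of largest fold in each direction past the threshold and 2-fold, with a mean of at least 1 CPM, were named, with a few fixed genes, and some genes that this rule or the likeness to a member would name are not reported here. No 2 livers were near-identical (highest correlation 0.983). On simulated counts for Lipa-/- against WT at 12 weeks over 13134 genes, the test recovered 100% of 100 genes changed 4-fold and 57% of 100 changed 2-fold. It made 11 false calls. The simulation gave every gene the same spread between mice, changed few genes and left out those with few reads. The members differed in spread (SE 0.24 for Abhd6 to 0.72 for Pnpla3 in that comparison), so these shares do not apply to each member. Coding sequences, and the GC content and length of canonical transcripts, come from GENCODE vM39. These transcripts need not be the forms that Salmon quantified.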

Additional observations from a re-analysis of the deposited data

Results flagged for a closer look

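The difference between treated and WT livers changed between 12 and 34 weeks for 2 of 8 members by a test of the difference itself, which 19.6% of all genes passed. For Lipe it was 1.22 ± 0.38 on the log2 scale (adjusted p = 0.036), from -1.03 at 12 weeks to 0.19 at 34 weeks. It was lost without WT mouse 1 or 3 or treated mouse 10 of 12 weeks, or without WT mouse 1 or treated mouse 9 or 11 of 34 weeks (adjusted p = 0.055 to 0.11), and with the GC and length trend removed (0.69, adjusted p = 0.11). For G0s2 it was -3.34 ± 0.79 (adjusted p = 0.024), from 1.72 at 12 weeks to -1.62 at 34 weeks. It was lost without WT mouse 3 of 12 weeks or without WT mouse 1 or treated mouse 9 of 34 weeks (adjusted p = 0.065 to 0.075), and it passed with the GC trend removed (-2.72, adjusted p = 0.033). Time and study code cannot be told apart in either.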

How the results depend on the processing

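Of the counts of members that passed, those that moved by over 1.5 times are as follows. For Lipa-/- against WT at 12 weeks (2 members) the count was 4 without the filter, 5 with the GC and length trend removed and 2 to 4 with a mouse left out. For treated against WT at 12 weeks (4) it was 0 at an adjusted p of 0.01, 2 by total counts and 0 to 4 with a mouse left out. For treated against untreated Lipa-/- at 34 weeks it was 3 in TPM against 5. Between time points it was 1 in DESeq2 against 0 in WT mice, 1 in DESeq2, 1 in TPM and 0 to 1 with a mouse left out against 0 in Lipa-/- mice, and 3 in TPM and 3 with the GC trend removed against 5 in treated mice. For the change of the Lipa-/- effect with time it was 1 in DESeq2 against 0, and for that of the treated effect 0 at an adjusted p of 0.01, 1 with the GC trend removed and 0 to 3 with a mouse left out against 2. With the mouse number as a replicate block, the count between time points was 0 in WT and 3 in treated mice against 0 and 5, where Lipe (adjusted p = 0.056) and G0s2 (adjusted p = 0.13) were lost, but the numbers share no animal.

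Directions turned only in values that had not passed. By total counts and in TPM these were Abhd5 (0.33 and 0.48) and Lipe (0.025 and 0.070) in Lipa-/- against WT at 34 weeks, Lipe (0.13 and 0.19) at 12 weeks, Abhd5 (0.036 and 0.011) and Pnpla2 (0.016 and 0.13, and 0.015 by upper quartile) in treated against WT at 34 weeks, and Abhd5 (-0.30 and -0.47) in treated against untreated Lipa-/- at 34 weeks. Pnpla3 was 0.027 in DESeq2 in treated against WT at 12 weeks, Mgll 0.59 with the GC trend removed in treated against untreated at 12 weeks, and the change of the treated effect for Abhd6 0.046 in TPM. With a mouse left out, treated against WT at 34 weeks ranged from -0.26 to 0.22 for Pnpla2, from -0.28 to 1.45 for Pnpla3, from -0.031 to 0.35 for Lipe, from -0.27 to 0.18 for Abhd5 and from -0.57 to 0.20 for Aadac, treated against WT at 12 weeks from -0.85 to 0.39 for Pnpla3 and from -0.25 to 0.020 for Abhd6, and treated against untreated at 12 weeks from -0.58 to 0.40 for Mgll. The causes were not tested. Length offsets in edgeR, filterByExpr, upper quartile scaling and a fit of the compared groups alone left the counts within 1.5 times. With 3 mice a group, the self-test missed many changes of 2-fold, and Pnpla3, at 12 to 311 reads, was measured least precisely.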

Other observations

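Of 10 tested genes of hormone and PKA signalling in Lipa-/- against WT livers, 2 rose and 2 fell at each time point, a share near that of all genes at 12 weeks (39.2%) and below it at 34 weeks (47.3%). Prkar2b, a regulatory subunit of PKA, rose (log2 fold change 2.87, adjusted p = 0.0013, at 12 weeks and 3.04, adjusted p = 0.00056, at 34 weeks). Gcgr, the glucagon receptor of hepatocytes, fell (-1.25 and -2.17), as did Pde3b, a phosphodiesterase that lowers cyclic AMP (-1.34 and -1.35). Mgll and Abhd6 act on the endocannabinoid 2-arachidonoylglycerol. Of 5 tested genes that make, break down or sense endocannabinoids, 2 rose at 12 weeks, and 1 rose and 1 fell at 34 weeks. These shares were near those of all genes (39.2% and 47.3%). Dagla rose at both time points (2.33 and 2.35), Cnr2 rose at 12 weeks (1.25, adjusted p = 0.038) and Faah fell at 34 weeks (-1.37, adjusted p = 0.0034). Immune and stellate cell markers rose in the same livers, and their part was not tested.

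Droplet fusion genes also varied among WT livers. Cidec and Cidea were 0.750 to 1.82 CPM and 0.161 to 0.479 CPM in 12-week WT livers and 3.30 to 39.0 CPM and 1.83 to 59.1 CPM in 34-week WT livers, with log2 fold changes of 4.05 (adjusted p = 0.015) and 6.91 (adjusted p = 0.022) between the time points, and treated livers at 34 weeks were below the WT livers of that time point in both (-3.46 and -6.23, adjusted p = 0.033 for each).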
